A study of Mus musculus with 24 samples.

Results

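Dimethylation of histone H3 at lysine 9 (H3K9me2) was compared between 2 kinds of heart biopsy taken from the same preconditioned mice. One biopsy came from the area at risk (AAR), the muscle fed by the coronary artery that was tied off, and the other from the remote myocardium (RM) of the same heart. The hearts had gone through ischemic preconditioning, 4 cycles of 5 min of occlusion and 5 min of flow, and then 30 min of reperfusion. All 6 mice were C57BL6 and 12 months old, 3 female (17, 19 and 30) and 3 male (22, 23 and 27). The comparison takes the 6 AAR and the 6 RM libraries of H3K9me2 chromatin immunoprecipitation with sequencing (ChIP-seq), 12 of the 24 libraries of the series, and pairs them by mouse. Input libraries, made from chromatin without precipitation, are used only to describe regions and libraries. The RM shared the operation and the circulation of the AAR, and sham-operated hearts were not analysed here, so the contrast is between areas of a preconditioned heart. Counts were given for 53386 regions of mouse build mm10, from 200 to 30600 bases long with a median of 2600. Of these, 31526 held enough counts for a test, and 5304 held no count in any of the 12 libraries. A library held 416683 to 1196368 counts in the AAR and 443261 to 981763 in the RM.

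H3K9me2 marks transcriptionally quiet chromatin. It is placed mainly by the paired methyltransferases G9a and GLP, encoded by Ehmt2 and Ehmt1, is removed by demethylases of the Kdm3 and Kdm4 families, and is read by HP1 proteins. It often spreads over broad domains, many of them at the nuclear lamina, and active gene starts tend to hold little of it. Ischemic preconditioning is a series of brief occlusions that makes heart muscle more resistant to a later, longer one. The biopsies are bulk tissue, so a change in the cells present and a change in the mark per cell cannot be told apart. Libraries hold chromatin, not RNA, so the labelled tissue was not checked against expressed markers.

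Start-site sequences are shown for 5 genes whose starts lie inside regions described below, so that the sequence under those regions can be seen. That of Cd276 lies in a neighbour of its top region, with 3 of 6 mice higher, and not in the top region itself. Each runs from 250 bases before to 50 bases after a RefSeq transcript start (assembly GRCm38.p6, which is mm10), and capitals mark every CG dinucleotide. The first 3 belong to regions that lay higher in the AAR, the last 2 to regions that lay lower.
Cd276, chr9:58554984-58555283, minus strand: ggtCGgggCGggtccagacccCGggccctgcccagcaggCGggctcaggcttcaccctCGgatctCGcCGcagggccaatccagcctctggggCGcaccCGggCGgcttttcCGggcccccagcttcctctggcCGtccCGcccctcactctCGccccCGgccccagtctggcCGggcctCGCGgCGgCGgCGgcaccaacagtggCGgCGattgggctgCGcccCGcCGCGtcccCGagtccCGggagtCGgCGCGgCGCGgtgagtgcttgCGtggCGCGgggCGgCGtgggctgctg
Spag7, chr11:70669367-70669666, minus strand: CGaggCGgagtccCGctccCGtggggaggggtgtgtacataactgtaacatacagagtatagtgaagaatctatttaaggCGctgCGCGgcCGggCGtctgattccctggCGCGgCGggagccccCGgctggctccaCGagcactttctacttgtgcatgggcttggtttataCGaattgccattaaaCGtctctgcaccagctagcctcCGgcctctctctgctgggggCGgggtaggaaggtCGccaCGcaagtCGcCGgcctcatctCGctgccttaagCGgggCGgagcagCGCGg
Nudt16l1, chr16:4938861-4939160, plus strand: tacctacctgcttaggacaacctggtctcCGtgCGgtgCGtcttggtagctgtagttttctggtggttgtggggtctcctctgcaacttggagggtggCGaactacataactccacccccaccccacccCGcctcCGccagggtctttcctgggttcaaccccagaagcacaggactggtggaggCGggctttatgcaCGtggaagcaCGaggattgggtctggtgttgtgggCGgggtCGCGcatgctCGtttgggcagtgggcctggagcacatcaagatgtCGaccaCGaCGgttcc
4930488B22Rik, chr1:184712247-184712546, plus strand: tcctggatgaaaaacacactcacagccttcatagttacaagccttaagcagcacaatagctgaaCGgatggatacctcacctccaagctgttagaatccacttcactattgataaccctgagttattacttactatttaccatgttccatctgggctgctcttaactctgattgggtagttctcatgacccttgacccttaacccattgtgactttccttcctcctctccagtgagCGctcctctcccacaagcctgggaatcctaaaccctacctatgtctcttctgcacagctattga
Asb10, chr5:24540929-24541228, minus strand: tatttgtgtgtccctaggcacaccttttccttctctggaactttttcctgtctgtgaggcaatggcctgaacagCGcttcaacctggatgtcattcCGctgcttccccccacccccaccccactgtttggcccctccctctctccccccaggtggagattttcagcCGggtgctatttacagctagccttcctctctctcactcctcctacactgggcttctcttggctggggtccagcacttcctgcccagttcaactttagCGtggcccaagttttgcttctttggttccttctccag
The start of Cd276 holds 39 CG dinucleotides, that of Spag7 27 and that of Nudt16l1 16, against 2 at 4930488B22Rik and 4 at Asb10. The sides do not divide by CG count: the start of Cdk8, whose gene sum lay lower in the AAR, holds 31 and lies in a listed region that was not tested. Over all 32851 RefSeq starts of this length the quartiles are 3, 7 and 20. The starts were picked by their regions, and nothing about CG content in the comparison as a whole was tested.

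The libraries differed from each other in a way the biopsy did not sort. As a measure of this, each H3K9me2 library, thinned to the lowest total, was correlated across tested regions with the mean input profile; a high value means that it resembles unprecipitated chromatin. The correlation (Pearson's r across regions) in the AAR was 0.446 for mouse 17, 0.410 for mouse 19, 0.493 for mouse 22, 0.688 for mouse 23, 0.591 for mouse 27 and 0.579 for mouse 30. In the RM it was 0.552, 0.519, 0.495, 0.413, 0.517 and 0.597 in the same order. Mouse 23 thus gave the library most like input, from its AAR, and, from its RM, the library least like input after the AAR of mouse 19. The AAR exceeded the RM by 0.019 on average (0.535 ± 0.104 against 0.516 ± 0.0615, SD, n = 6; two-sided exact sign-flip permutation p = 0.875), and without mouse 23 it lay below by 0.0322. The first principal component, 15.3% of the variance, had the AAR libraries of mice 23 and 19 at its opposite ends. Libraries of the same biopsy kind correlated with a median r of 0.625 in the AAR and 0.667 in the RM, against 0.645 between an AAR and an RM library of different mice and 0.640 within a mouse. In the labels check, the share of counts on chromosome X separated female from male mice in every library, from 0.164% to 0.254% against 0.0867% to 0.142% for H3K9me2.

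**Figure D1:**
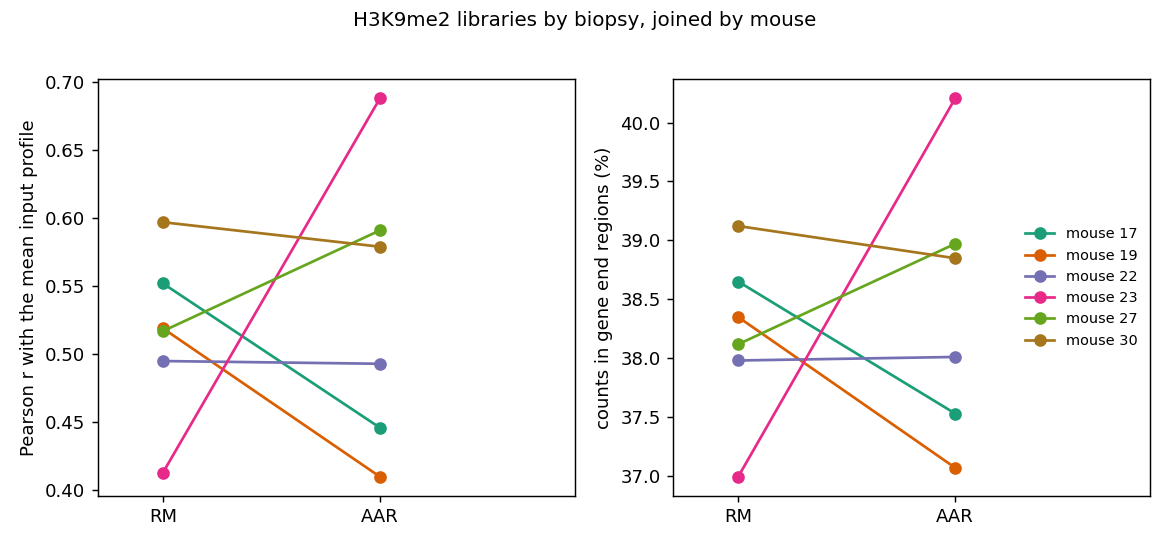
Similarity of each H3K9me2 library to the mean input profile (left, Pearson r across tested regions) and percent of its counts in regions near a gene end (right), for the remote myocardium (RM) and the area at risk (AAR) of each mouse, joined by a line. Mouse 23 goes up steeply in both panels (from 0.413 to 0.688 at left) while mice 17 and 19 go down, and mouse 22 stays nearly level.

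No region passed the test for a difference between AAR and RM. In the paired edgeR quasi-likelihood fit 0 of 31526 tested regions passed a Benjamini-Hochberg FDR of 0.05 (0%), and the smallest adjusted p was 0.9995. At an unadjusted p under 0.05 there were 584 regions higher in the AAR (1.85%) and 532 lower (1.69%), 3.54% in all where an even spread of p-values gives 5%. DESeq2 with the same pairing called 0 regions, with 86 at an unadjusted p under 0.05, and limma-voom called 0, with 1091. The median log2 fold change over all tested regions was 0.0006, and single regions ran from -0.89 to 0.99, so that none reached a 2-fold difference. A log2 fold change beyond 0.5 in either direction was fitted for 591 regions, of which 339 were in the lowest of 4 equal abundance classes and 21 in the highest. Across regions the mean profiles of the biopsies, as log2 CPM, correlated at r = 0.920; regions are not independent replicates.

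**Figure D2:**
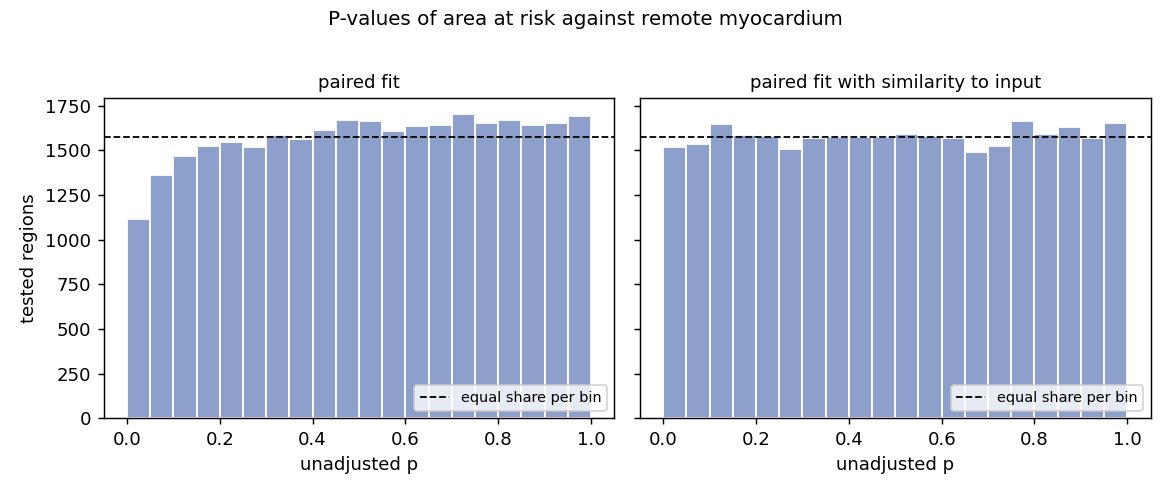
Histograms of the unadjusted p-values of 31526 tested regions, in bins 0.05 wide, from the paired fit (left) and from the same fit with similarity to input as a covariate (right); the dashed line is an equal share per bin. The lowest bin holds 1116 regions at left and 1516 at right, both under the dashed line, and 0 regions passed the FDR in either.

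The counts bounded how large a difference could have gone unseen. The 95% confidence interval of the log2 fold change lay wholly between -1 and 1 for 30926 regions (98.1%) and between -0.5 and 0.5 for 9166 (29.1%). It lay between -0.25 and 0.25 for 0 regions. These intervals use a spread taken in large part from all regions together, so a region whose mice differ widely is less well bounded. Sums over genes were tighter, with 64.5% of intervals inside 0.5 and 8.21% inside 0.25. Sums over windows of 1 Mb had 85.4% inside 0.5 and 57.5% inside 0.25. The median standard error fell from 0.22 for a region to 0.16 for a gene and 0.08 for a window. A global gain or loss of the mark is not measurable here, since each library was scaled to its own counts in the listed regions.

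Cd276, Nr6a1, Col15a1, Stk10 and Camta2 held the top regions on the higher side of the AAR, and none passed the test. Cd276 encodes B7-H3, a surface protein that modulates T cells. Its region at chr9:58548800-58553599 lay within the gene, less than 2 kb from its start. Levels are in CPM, for regions counts scaled to 1000000 counts in tested regions, with TMM. The region held 33.0 to 51.9 CPM (median 38.8) in the AAR and 7.77 to 26.6 (median 22.5) in the RM. The groups did not overlap and the level was higher in the AAR in 6 of 6 mice, the widest gap being in mouse 22, whose RM library was the lowest. The log2 fold change was 0.89 (SE 0.21; edgeR adjusted p = 0.9995). The neighbouring region over the start shown above, chr9:58552400-58555399, held 7.69 to 22.4 CPM in the AAR and 6.67 to 20.7 in the RM, with 3 of 6 mice higher. Its log2 fold change was 0.31 (SE 0.30; edgeR adjusted p = 0.9995). These regions overlap, and another tested region of the gene lay at -0.05.

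Col15a1 encodes a collagen of basement membranes, and its region at chr4:47242200-47244199 had the widest fold of all tested regions. It held 20.4 to 34.0 CPM in the AAR (median 27.9) and 5.33 to 25.9 in the RM (median 13.3), and the groups overlapped because the RM library of mouse 22 reached 25.9. The log2 fold change was 0.99 (SE 0.27; edgeR adjusted p = 0.9995), and 5 of 6 mice were higher. The other 7 tested regions of Col15a1 ran from -0.16 to 0.49. Nr6a1, an orphan nuclear receptor that represses germ cell and pluripotency genes, had a region at chr2:38927800-38930599, within 2 kb of the gene. It held 28.2 to 42.4 CPM in the AAR and 12.8 to 28.5 in the RM, higher in 6 of 6 mice, with a log2 fold change of 0.83. The overlap was slight and came from mouse 22 in the RM. Stk10, a kinase of lymphocytes that acts on ERM proteins, had a region at chr11:32564200-32567599 with 23.3 to 50.9 CPM in the AAR and 16.7 to 33.8 in the RM. In mouse 19 the order was turned, and the log2 fold change was 0.82.

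The region called Camta2 here, chr11:70668600-70677199, reaches over the start of its neighbour Spag7, whose sequence is printed above. Camta2 encodes a transcriptional coactivator linked to cardiac growth. It held 22.7 to 78.5 CPM in the AAR (median 53.8) and 21.7 to 42.6 in the RM (median 32.3). The AAR libraries themselves were spread widely, with mice 17, 23 and 27 at 65.2 CPM or more and mouse 19 below its own RM library. The log2 fold change was 0.75 (SE 0.21; edgeR adjusted p = 0.9995), and it was 0.98 without mouse 19 (adjusted p = 0.277) and 0.55 without mouse 27. Further regions of smallest p on this side were in or near Thoc5 (of the THO complex in mRNA export, log2 fold change 0.81), Hvcn1 (a proton channel, 0.71), Ski (a repressor of TGF-beta signalling, 0.69), Gse1 (a protein of corepressor complexes, 0.78), Mmp24 (a membrane metalloproteinase, 0.91) and Slc7a7 (a carrier of cationic amino acids, 0.91). In these 6 the groups overlapped, and Thoc5, Hvcn1 and Ski were higher in 6 of 6 mice. Among more abundant regions of 1 direction in all mice, Elk3, an ETS factor, lay at 0.70 with overlap. Pbx4, a homeobox factor, lay at 0.63 and its groups did not overlap, 35.8 to 69.6 CPM against 18.1 to 35.6.

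**Figure D3:**
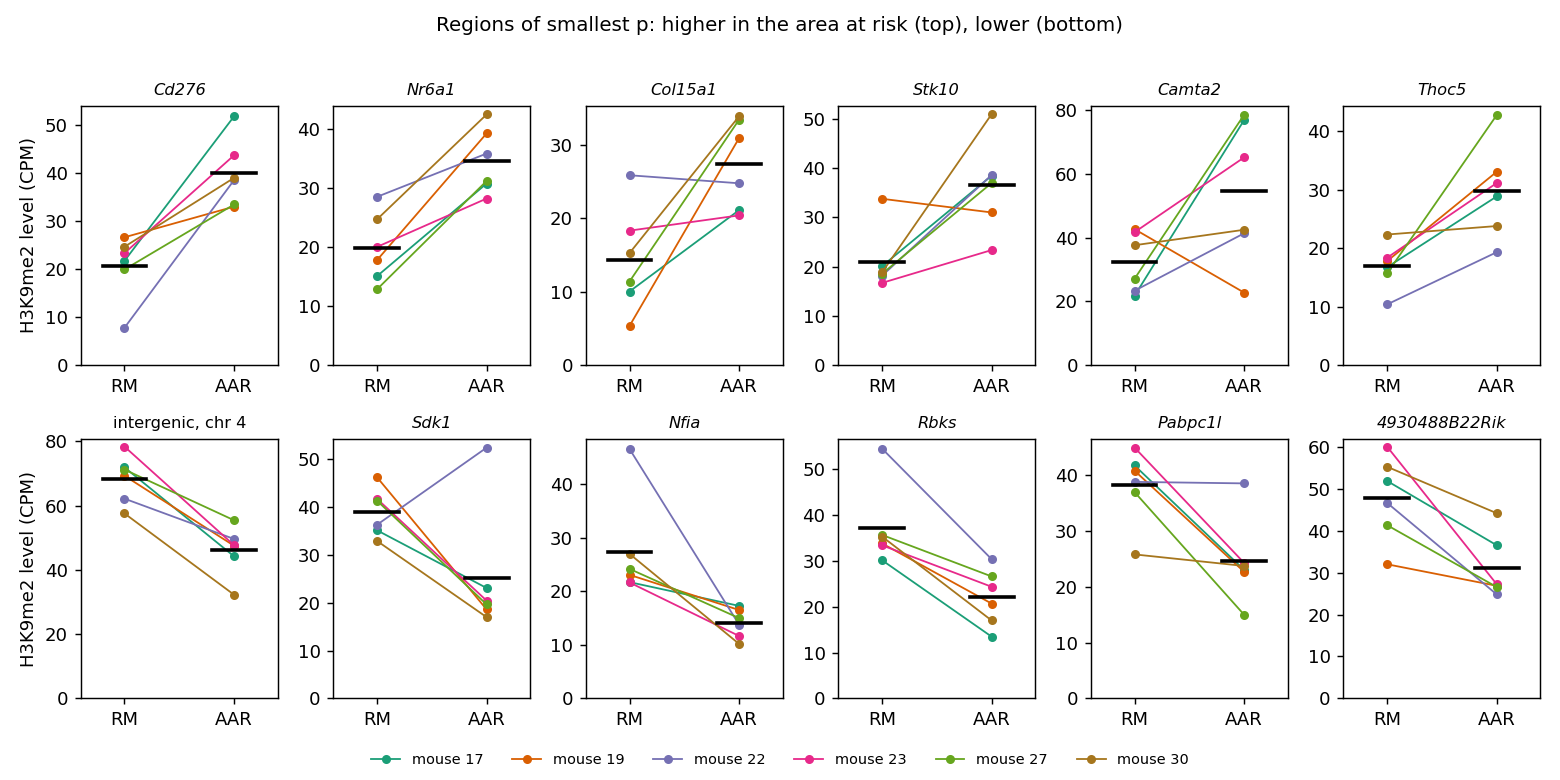
H3K9me2 level (CPM, axes from 0) of 6 of the regions of smallest p on each side, RM and AAR of each mouse joined by a line; black bars are group means. Among the regions in the top row only Cd276 has groups that do not overlap, and among those in the bottom row the intergenic region of chromosome 4 and Nfia do; no region shown passed the FDR.

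Among regions lower in the AAR, an intergenic stretch led, chr4:154705600-154709799. It held 32.3 to 55.4 CPM in the AAR (median 47.6) and 57.6 to 78.4 in the RM (median 70.2). The groups did not overlap, and the AAR was lower in 6 of 6 mice. The log2 fold change was -0.58 (SE 0.16; edgeR adjusted p = 0.9995). Nfia encodes a nuclear factor I transcription factor, and a region in its body, chr4:97702800-97703999, held 10.2 to 17.3 CPM in the AAR and 21.7 to 46.6 in the RM. Its groups did not overlap either, and the RM library of mouse 22 stood far above the others. The log2 fold change was -0.89 (SE 0.26; edgeR adjusted p = 0.9995), while 8 other tested regions of Nfia ran from -0.30 to 0.13.

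Sdk1, a cell adhesion molecule of synapses, had a region at chr5:141998400-142000199 with 17.0 to 52.4 CPM in the AAR and 32.9 to 46.2 in the RM. The AAR was lower in 5 of 6 mice, and the AAR library of mouse 22, at 52.4 CPM, was the highest of all 12. The log2 fold change was -0.76 (SE 0.21; edgeR adjusted p = 0.9995). The noncoding gene 4930488B22Rik had a region over its start, chr1:184712000-184714999, with 24.8 to 44.1 CPM in the AAR and 32.0 to 60.0 in the RM. It was lower in 6 of 6 mice, with overlapping groups and a log2 fold change of -0.63. Rbks, which encodes ribokinase, lay at -0.71 and the flank of Pabpc1l, a cytoplasmic poly(A)-binding protein of oocytes, at -0.70, both lower in 6 of 6 mice with overlap. The remaining 6 of the 12 were in Cryl1 (a sugar dehydrogenase, -0.68), the noncoding gene Tunar (-0.69), Kcng3 (a modifier of potassium channels, -0.59) and Dpf3 (a muscle subunit of BAF chromatin remodelling complexes, -0.78), and in intergenic stretches at chr4:132168400-132169999 (-0.78) and chr10:118955400-118957199 (-0.66). Among more abundant regions lower in all 6 mice were also Retreg1, a receptor for autophagy of the endoplasmic reticulum (-0.60), and the noncoding gene Gm34861 (-0.63).

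Groups that do not overlap were rare everywhere. All 6 AAR libraries lay above all 6 RM libraries in 27 tested regions and below them in 25, together 0.165% of 31526. Of the 12 regions of smallest p on each side 1 and 2 were among them. The AAR was higher in 6 of 6 mice in 451 regions (1.43%) and lower in 433 (1.37%). The 20 genes among the named regions that had other tested regions had 112 of them. Of these, 69 lay on the same side as the named one, while 50.1% of all tested regions lay above 0. An unadjusted edgeR p under 0.05 was found for 2 of the 112, both in Gse1, beside 3.54% of all tested regions. Gse1 was also the gene with the most other regions on the side of the named one, 29 of 36, at a median of 0.12. It thus gave 29 of the 69.

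Levels per kb gave the background against which these differences stand. The median region near a gene end held 9.07 ± 0.42 CPM per kb in the AAR and 8.91 ± 0.31 in the RM (SD over libraries, n = 6). Regions in gene bodies held 10.4 in both, and intergenic regions 11.9 ± 0.57 and 12.1 ± 0.31. The densest regions were in Zc3h7a (a zinc finger protein of RNA metabolism, at chr16:11143800-11144399), an intergenic stretch at chr3:5860200-5860999, the noncoding gene Gm36876 and Lars2 (the mitochondrial leucyl-tRNA synthetase). In Zc3h7a the AAR held 111 to 252 CPM and the RM 148 to 275, a log2 fold change of -0.24 (SE 0.12; edgeR adjusted p = 0.9995). The other 3 lay between -0.14 and -0.08 with overlapping groups. Their input levels were of like height, 188 CPM in the AAR and 207 in the RM for Zc3h7a.

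No difference in the shares of counts at gene ends, in gene bodies and in intergenic regions was detectable between the biopsies. Regions lying no more than 2 kb from either end of an annotated gene, its start or its finish, were called gene end. Gene ends took 38.4 ± 1.14% of a library in the AAR and 38.2 ± 0.72% in the RM (SD, n = 6; exact sign-flip permutation p = 0.844, adjusted p = 0.938), higher in 3 of 6 mice. Gene bodies took 44.3 ± 0.24% and 44.4 ± 0.17% (exact p = 0.938). Intergenic regions took 17.2 ± 0.92% and 17.4 ± 0.57% (exact p = 0.844, adjusted p = 0.938). With 6 pairs the smallest p this test can give is 0.0312. Mouse 23 went from 37.0% gene end in the RM to 40.2% in the AAR, mouse 17 from 38.6% to 37.5% and mouse 19 from 38.3% to 37.1%. Without mouse 23 all 3 differences changed sign: gene ends lay 0.358 percentage points lower in the AAR, gene bodies 0.0961 higher and intergenic regions 0.262 higher. The AAR libraries were not detectably further from their own group than the RM libraries, with an SD over regions of 0.547 ± 0.023 against 0.537 ± 0.017 on the log2 scale (pseudocount 1 CPM; n = 6, exact sign-flip permutation p = 0.312).

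The makeup of the regions at an unadjusted p under 0.05 also turned when mouse 23 was left out. Among the 584 on the higher side 43.8% were gene end and 11.5% intergenic, among the 532 on the lower side 29.5% and 21.4%, and among all tested regions 37.0% and 17.4%. The median log2 ratio of H3K9me2 over input was -0.24, 0.27 and 0.04 in these sets. Without mouse 23 the order turned, with 33.1% gene end on the higher side (726 regions, median ratio 0.23) and 42.1% on the lower (675 regions, -0.12). With similarity to input as a covariate the sides lay close together, at 36.7% and 37.3% gene end. That covariate comes from the same counts and was chosen after the data were seen, so it describes the libraries only. It was itself tied to 513 regions at FDR 0.05 (1.63%), 360 of them lower in input-like libraries. Beside it 0 regions differed between the biopsies, the smallest adjusted p being 0.290, shared by Cd276 and Col15a1.

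Counts summed over all regions of a gene gave the same outcome, with 0 of 10469 protein-coding genes called (0%) and 303 at an unadjusted p under 0.05 (2.89%; 147 higher, 1.4%, and 156 lower, 1.49%). On the higher side stood Spag7, Nudt16l1, Actrt3, Rad9a, Srsf6 and Urb2. Urb2, a protein of ribosome assembly, was the 1 of these whose groups did not overlap, at 48.2 to 58.8 CPM in the AAR and 30.3 to 44.8 in the RM. Its log2 fold change was 0.52 (SE 0.17; edgeR adjusted p = 0.9999). Nudt16l1, a regulator of the DNA damage protein 53BP1, held 20.9 to 59.6 CPM in the AAR and 13.8 to 26.8 in the RM, higher in 6 of 6 mice. Its log2 fold change was 0.84 (SE 0.24), and most of it came from the 1 tested region over the start printed above. Taken singly, and on the scale of tested regions, that region was higher in 4 of 6 mice. It held 10.3 to 49.6 CPM in the AAR and 10.7 to 23.4 in the RM. Spag7, an RNA-binding protein named for sperm, lay at 0.52, Actrt3, an actin-related protein of testis, at 0.87, Rad9a, of the DNA damage checkpoint clamp, at 0.49 and Srsf6, a splicing factor, at 0.87. The groups overlapped in these 4.

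On the lower side stood Cdk8, Asb10, Gm31160, H2-Oa and F10. Cdk8, the kinase of the Mediator complex, had the smallest p of all genes: 130 to 190 CPM in the AAR and 160 to 233 in the RM, lower in 6 of 6 mice. Its log2 fold change was -0.39 (SE 0.10; edgeR adjusted p = 0.9999), and the groups overlapped through the AAR library of mouse 19. Asb10, a substrate adaptor of ubiquitin ligases, held 28.9 to 38.2 CPM in the AAR and 41.1 to 72.9 in the RM, with no overlap. Its log2 fold change was -0.66 (SE 0.18; edgeR adjusted p = 0.9999), and its 1 tested region, chr5:24538600-24541599 over the start printed above, lay at -0.68. H2-Oa, a chain of the class II regulator DO, lay at -0.71, F10, coagulation factor X, at -0.43 and the predicted gene Gm31160 at -0.49. Groups that do not overlap were found in 18 genes (0.172%), and all 6 mice went 1 way in 281 (2.68%).

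None of 21 gene lists held a called gene. List medians ran from -0.20 to 0.09, beside a median of -0.003 over all 10469 genes. Odorant receptors, known mainly from the nose, had the lowest median, -0.20 over 15 measured genes, 11 of them below 0, beside 5305 of all 10469. Of the 1110 odorant receptors listed, 17 overlapped or neighboured a region. Olfr1330 lay at -0.65 and Olfr1410 at -0.37, the 2 of the list with an unadjusted p under 0.05, beside 1.49% of all genes on the lower side. The list's median per mouse ran from -0.77 to 0.19, above 0 in 2 of 6 mice. Cytoplasmic ribosomal proteins had the highest median, 0.09 over 16 genes with 12 above 0, and Rpl8 lay at 0.52 and Rpl28 at 0.42. This median also varied by mouse, from -0.42 to 0.48, and was 0.005 without mouse 23. All 24 measured protocadherin genes, cell adhesion genes in clusters, lay below 0 with a median of -0.10, but they rest on 7 distinct sets of regions and 0 of them had an unadjusted p under 0.05. Their median per mouse ran from -0.40 to 0.15, above 0 in 2 of 6 mice, and it ran from -0.15 to -0.04 with single mice left out. Over their 14 tested regions the median was -0.02.

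Genes of heart muscle and of its response to ischemia were centred near 0. Genes of the cardiomyocyte sarcomere and of calcium handling had a median of 0.03 over 19, 11 above 0, with Mybpc3, the myosin-binding protein C of heart, at 0.26 and Tnnt2, cardiac troponin T, at -0.17. Immediate early and stress response genes had a median of 0.02 over 25, with Gadd45b at 0.38 and Atf3 at -0.23. Hypoxia response genes lay at 0.01 over 16, with the oxygen sensor Egln2 at 0.30 and Pfkfb3, an activator of glycolysis, at -0.21. Signalling genes of preconditioning and of cell death lay at -0.02 over 27, with the survival factor Bcl2l1 at 0.12 and Mcl1, of the same family, at -0.33. None of these 4 lists had a gene at an unadjusted p under 0.05. Oxidative phosphorylation and fatty acid oxidation genes lay at 0.05 over 21, and 2 had an unadjusted p under 0.05: Cpt1b, which brings fatty acids into muscle mitochondria, at 0.34 and Cox4i1, of cytochrome c oxidase, at 0.32. Over all genes 1.4% were higher at that p, and the list's median was -0.04 without mouse 23. Autophagy machinery lay at 0.03 over 21, with Atg12 at -0.28 and Bnip3 at 0.27.

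Markers of the other cell types a biopsy can hold lay on both sides of 0 in each of their lists, while the list medians lay below 0. Whether these medians differ from 0 was not tested. Endothelial and mural markers had a median of -0.02 over 16 genes, 9 of them below 0. Tie1, an endothelial receptor, lay at 0.40 in 6 of 6 mice, and the endothelial factor Erg lay at -0.16, higher in 3 and lower in 3 mice. Fibroblast markers had a median of -0.16 over 7, with Pdgfra at -0.17 and Col1a1, a fibrillar collagen, at 0.31; the median turned to 0.08 without mouse 23. Macrophage and leukocyte markers lay at -0.11 over 7, and at 0.02 without mouse 23. Over the tested regions of these lists, taken singly, the medians were above 0, at 0.10 over 23 fibroblast and 0.07 over 11 leukocyte marker regions. The median was -0.09 over 4 genes for erythroid markers, -0.03 over 7 for adipocyte and epicardial markers and -0.03 over 8 for neuronal and Schwann cell markers. Of the 15 fibroblast and 20 leukocyte markers listed, 7 each overlapped or neighboured a region. Germ line genes lay at -0.006 over 7 with the meiotic gene Stra8 at -0.39, collagens at 0.001 over 16, zinc finger genes named Zfp at 0.02 over 141 and Hox genes at -0.02 over 33. Hox genes, which set position along the body axis, lay on both sides of 0, with Hoxa7 at 0.50 in 6 of 6 mice and Hoxb5 at -0.62 and Hoxb6 at -0.41.

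**Figure D4:**
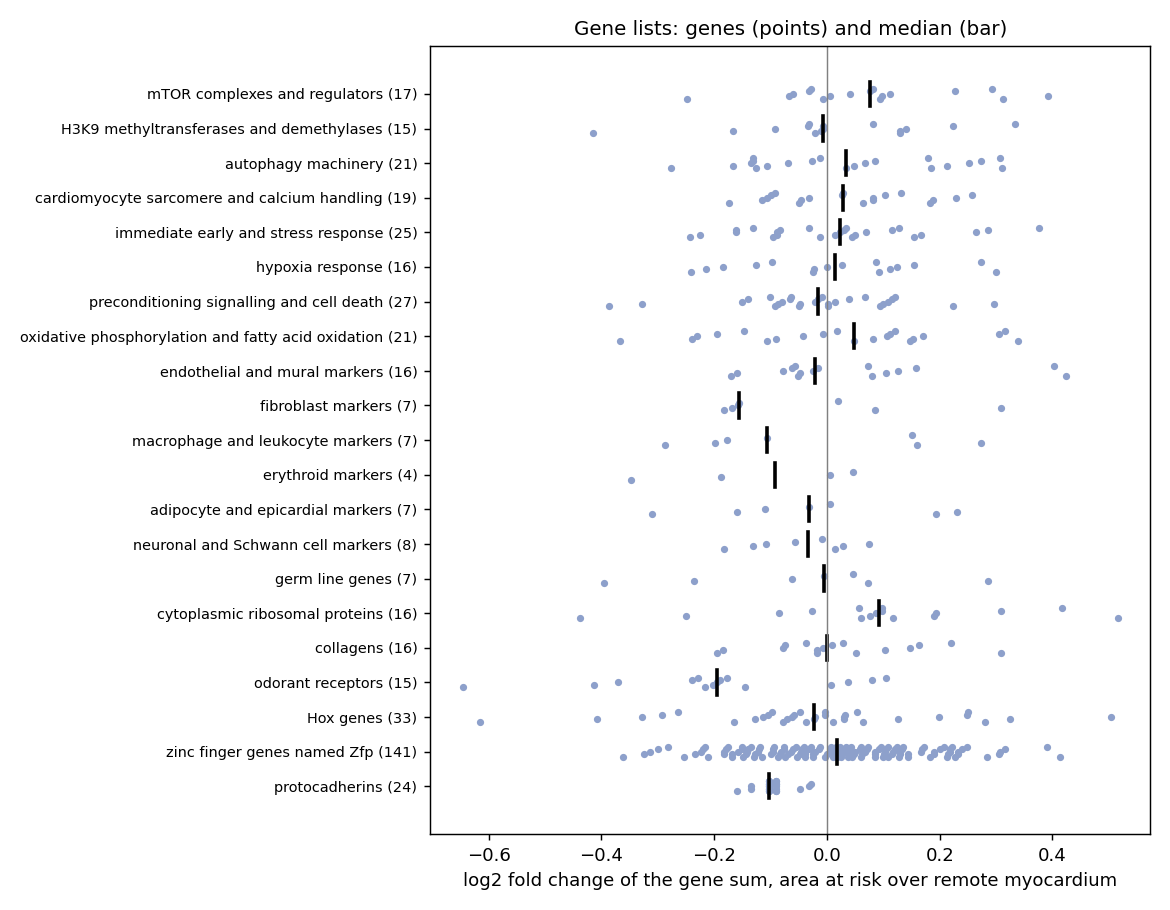
Log2 fold change (AAR over RM) of every measured gene of the 21 lists, one point per gene, with the list median as a bar and the number of measured genes in brackets. The medians lie between -0.20 for odorant receptors and 0.09 for ribosomal proteins, and 0 of the genes passed the FDR.

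Genes that write, erase and read H3K9 methylation and genes of the mTOR pathway were centred near 0 as well. The list of H3K9 methylation and demethylation genes had a median of -0.007 over 15 genes, 6 above 0. Not all of the 15 are enzymes, since HP1 proteins are among them. Kdm4a, a demethylase, lay at 0.22, Prdm2, a methyltransferase, at -0.17 and Cbx1, an HP1 protein, at -0.41. Ehmt2 held 55.4 ± 5.21 CPM over its regions in the AAR and 50.2 ± 7.86 in the RM (SD, n = 6), a log2 fold change of 0.13 (95% confidence interval -0.19 to 0.45). Of its 2 tested regions, that in its body lay at -0.08, with 4 of 6 mice lower. The other overlaps its end and the start of a neighbouring gene, and lay at 0.27, with 5 of 6 mice higher. The region of Ehmt1 held too few counts for a test. Genes of the mTOR complexes and their regulators had a median of 0.08 over 17 genes, 11 above 0, with Ddit4, an inhibitor of mTOR complex 1, at 0.29, Lamtor1, its lysosomal anchor, at 0.31 and the upstream kinase Stk11 at -0.25. Mtor summed to 257 ± 25.5 CPM in the AAR and 262 ± 26.2 in the RM over 19 listed regions, a log2 fold change of -0.03 (95% confidence interval -0.22 to 0.16). Of the 19, 6 held no count in any of the 12 libraries and 7 held enough for a test of their own. The region at the start of Mtor was not among those tested. The direction of the Mtor sum turned without mouse 27 or 30.

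No broad stretch passed the test, with 0 of 1717 windows of 1 Mb called (0%) and 22 at an unadjusted p under 0.05 (1.28%), 8 of them higher (0.466%) and 14 lower (0.815%). The smallest p belonged to chromosome 14 from 32 to 33 Mb, over 34 regions. It held 534 to 656 CPM in the AAR and 626 to 684 in the RM, lower in 6 of 6 mice with a slight overlap, and had a log2 fold change of -0.14 (SE 0.05; edgeR adjusted p = 0.997). On the higher side stood chromosome 16 from 42 to 43 Mb, with 1 region and a log2 fold change of 0.70, and chromosome 13 from 38 to 39 Mb, with 21 regions and 0.13. Without mouse 23, 69 windows had an unadjusted p under 0.05 and 0 were called. Windows of 5 Mb gave 0 of 492. The mean log2 ratio of an autosome's share of counts lay between -0.01 and 0.01, while mouse 23 alone reached -0.27 on chromosome 13 and 0.15 on chromosome 11. Mice 17 and 19 lay on the other side of 0 on both, at 0.12 and 0.10 on chromosome 13 and at -0.06 and -0.05 on chromosome 11.

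**Figure D5:**
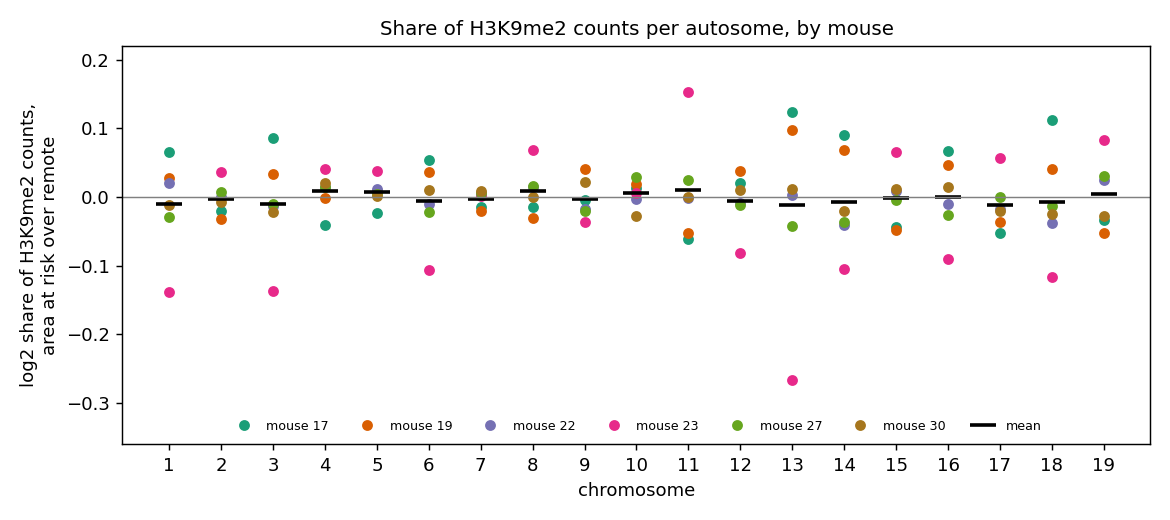
Log2 ratio (AAR over RM) of the share of H3K9me2 counts on each autosome, one point per mouse with the mean as a black bar. Means stay between -0.01 and 0.01, and mouse 23 is the farthest from 0 on most chromosomes, down to -0.27 on chromosome 13.

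Whether the biopsies differed unequally in female and male mice was asked with an interaction term. It called 0 of 31526 regions (0%). An unadjusted p under 0.05 was found in 2723 (8.64%), and the lowest adjusted p was 0.132. The 3 regions of smallest p shared that value: an intergenic one at chr1:163140800-163143999, one in Man2a2, a mannosidase of the Golgi, and one in Fbxl17, a substrate adaptor of ubiquitin ligases. In the chromosome 1 region the log2 ratio of AAR over RM was 0.64, 0.85 and 0.41 in female mice 17, 19 and 30 and -0.40, -1.31 and -0.84 in male mice 22, 23 and 27. The signs parted by sex, and the interaction was -1.62 (SE 0.36, male minus female). The 3 regions were picked by the p of this same term, so parted signs add no separate evidence. How often signs part by sex over all tested regions was not counted. At Man2a2 the ratio was -0.56, -0.98 and -0.74 in the female mice and 1.19, 0.79 and 0.68 in the male mice, with an interaction of 1.62 (SE 0.36). At Fbxl17 the female mice were at -0.0008, 0.53 and 0.57 and the male mice at -0.77 or below. The similarity to input rose from RM to AAR in male mice 23 and 27, hardly moved in male mouse 22 (0.495 to 0.493) and fell in 3 of 3 female mice, and with that covariate 1517 regions had an unadjusted p under 0.05. Leaving out mouse 22 gave 8 called regions and leaving out mouse 27 gave 4, and 1834 had an unadjusted p under 0.05 without mouse 23. The part of this library measure in the sex term was not tested further.

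The authors' deposited table of this contrast, which compares the same counts, has 0 regions with an FDR under 0.05, the smallest being 0.292. With its sign turned, its log2 fold change correlated at r = 0.991 with the paired one across 31526 regions, and the 24 named regions of smallest p had the same sign in it.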

How the data were processed

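H3K9me2 ChIP-seq and input libraries were made from about 25 mg of heart tissue per biopsy with 12 PCR cycles and paired reads of 101 bases, per the labels' protocols. The authors deposited whole-number counts per region and library, 1 column per library and not normalized, together with their own log2 fold change, log2 CPM, p-value and FDR. Build mm10, Bowtie2 2.2.2, SICER 1.1 and edgeR are named per the submitters' processing notes, without their roles. How regions were called and whether duplicates were removed is not given in the sources used here. Of the regions 20668 overlap another, and reads in overlaps may be missing from 1 or both.

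The 12 libraries were fitted with edgeR 4.0.16 (R 4.3.3; TMM, filterByExpr, quasi-likelihood test, mouse as block, Benjamini-Hochberg FDR 0.05 over all tested regions); every edgeR p and adjusted p in the text is two-sided and from this fit unless another is named. CPM are counts scaled to 1000000 counts over the items of the same fit (tested regions, gene sums or windows), with TMM. CPM of regions, genes and windows are therefore on different scales. Sums over protein-coding genes (regions within 2 kb) and over windows of 1 Mb were fitted alike, and regions of neighbouring genes can be shared. Library measures used exact sign-flip tests over the 6 pairs. The fit was tested on simulated data. Alternatives included DESeq2 1.42.0, limma-voom (limma 3.58.1), other scalings and filters, no block and each mouse left out. Genes were taken from RefSeq (GRCm38.p6); no genome was used here.

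Pairing comes from the animals. It was faint in the counts, where AAR and RM deviations of 1 mouse had a Pearson r of -0.225 to 0.0661. Named were the 12 regions of smallest p on each side, the 5 of widest fold on each side at or above the median abundance with 6 mice in 1 direction, the 4 of highest CPM per kb and the 3 of smallest sex p. Named too were the 6 genes and 3 windows of smallest p on each side, up to 3 genes of smallest p in each list, and Mtor, Ehmt2 and Ehmt1; some items named by this rule are not reported here. The comparison and the lists were chosen with earlier results of these data known. P-values rest on 6 mice with 1 library per biopsy. The SEs, confidence intervals and p-values of edgeR take the spread in large part from all regions, genes or windows fitted together. They do not measure the spread of 1 region between mice alone, and can be small where mice differ widely, as at Camta2.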

Additional observations from a re-analysis of the deposited data

Results flagged for a closer look

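In 11 of 130 groups of 6 values examined, the highest or lowest library stood apart from the rest by Dixon's criterion at the 95% level (a gap over 0.625 of the range); chance gives about 1 in 20. In the AAR these were mouse 22 at the Sdk1 region, with 52.4 CPM against 17.0 to 23.1 in the others, and mouse 30 at the Pbx4 region, with 69.6 CPM against 35.8 to 44.7. Mouse 19 stood apart in the AAR at the Gm36876 region (260.2 CPM against 140 to 175) and in the sum of Cdk8 (190.3 CPM against 130 to 148). Mouse 17 stood apart in the AAR in the window of chromosome 11 from 66 to 67 Mb, with 43.6 CPM against 20.8 to 28.6.

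In the RM, mouse 22 stood apart in 4 regions: low at Cd276 (7.77 CPM against 19.9 to 26.6) and high at Nfia (46.6 against 21.7 to 27.0), Rbks (54.4 against 30.1 to 35.6) and the Mtor region at chr4:148469200-148474199 (51.8 against 35.1 to 41.3). Mouse 19 was high at Stk10 (33.8 CPM against 16.7 to 20.1). The RM library of mouse 23 lay farthest from its group, with an SD over regions of 0.569 against 0.524 to 0.540. The libraries of mouse 22 had the lowest totals, 416683 and 443261 counts. The named regions were picked for small p or wide folds, so their values are no random draw.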

How the results depend on the processing

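The count of called regions, genes and windows was 0 under every alternative run. With no replicate block 1272 regions had an unadjusted p under 0.05 (smallest edgeR adjusted p 0.735), against 1116 with it, and the block changed no call. Leaving out single mice gave 910 to 1401 regions at an unadjusted p under 0.05, with smallest adjusted p from 0.277 (without mouse 19) to 0.9999. DESeq2 gave 86 such regions, 21 genes and 0 windows, no TMM 12 windows, and similarity to input as a covariate 1516 regions, 537 genes and 83 windows; the cause was not tested. The sex term called 0 to 8 regions when single mice were left out, and 0 with no replicate block (2978 at an unadjusted p under 0.05). Of the 12 regions of smallest p on each side, 6 and 2 remained without mouse 23.

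Differences that changed sign were small, and the cause was not tested. Leaving out single mice, class shares ran from -0.358 to 0.541 points at gene ends, from -0.0891 to 0.0961 in gene bodies and from -0.452 to 0.262 in intergenic regions, and similarity to input from -0.0322 to 0.0446; the turned ends are without mouse 23. Gene bodies were at 0.00403 in regions that overlap no other. Log2 fold changes with single mice left out ran from -0.236 to 0.0362 at chr3:5860200-5860999, from -0.158 to 0.0307 at Lars2, from -0.296 to 0.217 at chr1:163140800-163143999 and from -0.0388 to 0.312 at Man2a2. They ran from -0.181 to 0.0302 at Ehmt2 chr17:34906400-34908999, from -0.146 to 0.267 at Mtor chr4:148469200-148474199 and from -0.244 to 0.0808 at Mtor chr4:148490200-148494799. Gene sums ran from -0.333 to 0.00439 for Klf1 and from -0.0312 to 0.172 for Slc4a1, both of the erythroid list, from -0.413 to 0.0084 for S100b of the neuronal list and from -0.124 to 0.0377 for Mtor. With the covariate the chromosome 1 region was at 0.0422, Man2a2 at -0.0480 and Mtor chr4:148469200-148474199 at -0.000712, and with DESeq2 Mtor chr4:148511400-148513199 was at 0.0106. Similarity to input, as measure and covariate, and the sex fit with no block were chosen after seeing the data.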

Other observations

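Counts in a region near the end of chromosome Y (chrY:90803200-90806199) did not divide by labelled sex. The region lies in the pseudoautosomal stretch, which chromosome X also carries, so its counts cannot report sex. In H3K9me2 (AAR and RM) it held 35 and 36 counts in female mouse 19, 44 and 33 in male mouse 22, 23 and 22 in male mouse 23, and 15 and 15 in male mouse 27. Female mice 17 and 30 held 0 or 1 count. In the inputs it held 102 and 77 counts in mouse 19 and 130 and 135 in mouse 22, 22 and 41 in mouse 23, 16 and 18 in mouse 27, and 1 to 3 in mice 17 and 30. Over all 18 listed regions of chromosome Y, mouse 19 held 45 and 49 counts in H3K9me2 and 129 and 113 in input, so some lay outside this region. Male mouse 23 held 38 and 28 in H3K9me2 and male mouse 27 held 24 and 26. Female mouse 17 held 1 and 3, and female mouse 30 held 0 and 1. Where the other Y counts of mouse 19 come from was not tested. Chromosome X shares of mouse 19 were those of a female in all its libraries, 0.254% and 0.221% in H3K9me2 and 0.178% and 0.149% in input.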
